A study of Mus musculus with 46 samples.

Results

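Microglia sorted from mouse gliomas after 5 days of BLZ945 with radiation (IR-BLZ945, 3 mice) were compared with microglia sorted after 5 days of BLZ945 alone (BLZ945, 4 mice), which sets radiation added to the drug against the drug by itself. The 7 libraries were chosen by cell type and treatment as labelled and are 7 of the 46 libraries of the study, in which 2 populations, microglia (MG) and macrophages derived from bone marrow (BMDM), were sorted from the tumours of 23 mice. The IR-BLZ945 mice are numbered 65696, 65971 and 67537, and the BLZ945 mice 122, 123, 124 and 65975. Further MG libraries, from 2 mice given radiation alone and labelled as 5 days (IR) and 4 vehicle mice, and the BMDM libraries of the same 7 mice served for comparison. All groups carried the same tumour model: nTVA Ink4a/Arf KO/KO mice received DF1 RCAS-PDGFB-HA cells by injection into the brain at 5 to 6 weeks of age, so the animals treated with BLZ945 alone and with vehicle lacked Ink4a/Arf too. In this model avian cells deliver a PDGFB virus to the cells that carry its receptor, and gliomas grow from those cells. The sources used here gave neither the dose and timing of radiation nor the dose of BLZ945.

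BLZ945 is a small-molecule inhibitor of the colony stimulating factor 1 receptor (CSF1R), the receptor kinase on which microglia and many tissue macrophages depend for survival and proliferation. Ionising radiation breaks DNA. Broken DNA activates the kinase ATM, which stabilises p53, and p53 switches on genes that halt the cell cycle, such as Cdkn1a, and genes that promote cell death, such as Bax. The Ink4a/Arf locus (Cdkn2a) encodes further brakes on the cell cycle, of which ARF acts on p53 through MDM2, and these mice were bred without it. Microglia are long-lived macrophages of the brain that renew themselves locally, and those within gliomas divide more than those of resting brain.

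The total count ran from 3007379 to 12114594 per library over the 7. The library of IR-BLZ945 mouse 65971 was the shallowest of all 46 and stood apart: it held 9181 genes with at least 10 counts, against 11230 to 12751 in the other 6, and its log2 levels correlated with theirs at r = 0.546 to 0.615, while the 2 other IR-BLZ945 libraries correlated at 0.909 and the BLZ945 libraries with each other at 0.918 to 0.981. Mouse 65971 was also the single one of the 7 whose MG library held Y-linked transcripts in place of Xist, as did its BMDM library, and in all 7 mice both libraries had the same profile. They did not in IR mouse 65698, where MG held Xist at 5.58 log2 CPM and BMDM held Y-linked genes at a mean of 4.36 log2 CPM, so the label of 1 of these libraries is in doubt and IR results are given with and without the MG library labelled 65698. All 3 IR-BLZ945 mice and BLZ945 mouse 65975 carry long mouse numbers, while BLZ945 mice 122, 123 and 124 carry short ones. What the style of the number stands for was not given, so among the 7 it can be told apart from radiation only through the single BLZ945 mouse 65975. Levels below are log2 CPM, counts scaled to the library total, with a prior count of 1, on which a library without a count reads -3.48. A gene counted as passing when its adjusted p was at or under 0.05 by edgeR's quasi-likelihood test across all genes, in a fit that takes its spread from all 23 MG libraries. Differences between groups are log2 fold changes, and in bulk RNA fewer cells of a type and less RNA per cell cannot be told apart.

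The sort, on CD45 and CD11b with Ly6C, Ly6G and CD49d excluded, could be checked on some of its own genes. Ptprc, which encodes CD45, did not pass (log2 fold change -0.13, adjusted p = 0.80), and Itgam, which encodes CD11b, was lower in IR-BLZ945 by a log2 fold change of -0.85 (adjusted p = 0.024). Itga4, which encodes CD49d, stood at 1.79, 2.10 and 2.94 log2 CPM in IR-BLZ945, against 1.75, 1.89, 1.73 and 1.02 log2 CPM in BLZ945, low in every library (adjusted p = 0.37). Ly6c2, a Ly6C gene, was counted 1, 0 and 9 times in IR-BLZ945 and 0, 1, 1 and 0 times in BLZ945. That is a ratio of 8.93 with a counting interval of 1.9 to 83.9. Cdkn2a was counted 3, 0 and 5 times in IR-BLZ945 and 13, 6, 12 and 9 times in BLZ945, close to absent in each library. Which exons these reads fell on was not given.

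With radiation added to BLZ945, some p53 target genes were higher and many genes of mitosis and DNA replication were lower. Some transcripts that belong to other cell types of the brain and blood were also higher. In all, 1430 of 14534 genes tested passed (9.84%), of which 1021 were higher in IR-BLZ945 (7.02%) and 409 lower (2.81%). The median log2 fold change over all genes was -0.02. For 2026 genes (13.9%) the 3 and the 4 libraries did not overlap, 802 with IR-BLZ945 higher (5.52%) and 1224 with IR-BLZ945 lower (8.42%). The number of genes that passed depended on which libraries set the spread and on single mice. Fitted on the 7 libraries alone, edgeR passed 0 genes, with 1293 at an unadjusted p under 0.05, while DESeq2 on the same 7 passed 508. Without mouse 65971 the count was 946, without BLZ945 mouse 124 it was 297 and without BLZ945 mouse 122 it was 419. Among long-numbered mice alone, with 65975 as the single BLZ945 library and its spread taken from the other groups, 19 genes passed.

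Some of the genes that p53 activates were higher with radiation. Of 38 p53 target genes, all tested, 11 rose and 0 fell (background 7.02% higher), with a median log2 fold change of 0.39 over the 38, against -0.02 over all genes. For 11 the libraries did not overlap with IR-BLZ945 higher (background 5.52%). The mean over the list was 4.69, 3.53 and 4.65 log2 CPM in IR-BLZ945 and 3.998, 4.03, 3.84 and 3.66 log2 CPM in BLZ945, with mouse 65971 below every BLZ945 library. The summed list overlapped too, at 3716, 5801 and 3858 CPM in IR-BLZ945 and 3069, 3894, 2771 and 2398 CPM in BLZ945. Phlda3, an inhibitor of AKT signalling and a direct p53 target, stood at 5.90, 6.86 and 5.72 log2 CPM in IR-BLZ945, against -0.43, 0.41, 0.11 and 1.51 log2 CPM in BLZ945. All 3 libraries with radiation were far above all 4 without it. The log2 fold change was 5.74 (SE 0.50, adjusted p = 2.0e-06), the smallest p of all genes tested. Cdkn1a, which encodes the cell cycle inhibitor p21, stood at 9.69, 11.11 and 9.45 log2 CPM in IR-BLZ945 and at 6.18, 7.34, 6.401 and 6.64 log2 CPM in BLZ945, with the highest level in mouse 65971 and no overlap. Its log2 fold change was 3.58 (SE 0.38, adjusted p = 3.8e-05).

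The Cdkn1a promoter is shown because Cdkn1a is the best-known p53 target among these genes. The 100 bases before the first of its listed starts, chr17:29090879-29090978 on the plus strand (RefSeq, GRCm38.p6), are printed 5′ to 3′ with matches to the p53 half-site in capitals:
Cdkn1a: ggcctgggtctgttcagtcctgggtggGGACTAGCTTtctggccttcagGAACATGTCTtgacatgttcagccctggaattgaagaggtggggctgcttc
The matches begin 73 and 51 bases before the start. At least 1 half-site, on either strand, stood within 250 bases before the start in 7 of 29 p53 list genes with a promoter in the RefSeq table (24.1%), against 7.18% of all 27018 promoters. A match of letters is not a measured binding site.

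Ccng1, which encodes cyclin G1, a regulator in the feedback on p53, lay at chr11:40748552-40755309. It stood at 8.44, 8.14 and 8.60 log2 CPM in IR-BLZ945 and at 6.78, 6.73, 6.52 and 6.63 log2 CPM in BLZ945 with no overlap (log2 fold change 1.74, SE 0.23, adjusted p = 0.00063). Bax, at chr7:45461695-45466903, encodes the effector that permeabilises mitochondria in apoptosis. Its levels were 7.74, 7.84 and 7.55 log2 CPM in IR-BLZ945, against 6.36, 6.10, 5.98 and 6.75 log2 CPM in BLZ945. The lowest IR-BLZ945 library thus lay above the highest BLZ945 library, and the log2 fold change was 1.39 (SE 0.23, adjusted p = 0.0023). Phlda3 lay at chr1:135766085-135769134 and Cdkn1a at chr17:29090979-29100722. The other p53 targets that rose are named after their values were seen: the receptors Eda2r (log2 fold change 5.79) and Tnfrsf10b (2.91), the secreted stress factor Gdf15 (3.10), the exonuclease Aen (1.31), the spindle protein Psrc1 (1.71), the stress-response gene Sesn2 (1.03) and the epoxide hydrolase Ephx1 (1.43). Mdm2, which encodes the ligase that degrades p53, had a log2 fold change of 0.33 (adjusted p = 0.79), and Bbc3, the death gene also called Puma, one of 0.56 without passing. Among 17 genes of the BCL2 family 3 rose and 0 fell (background 7.02% higher): Bax, the pro-death Bok and the survival gene Bcl2l1 (log2 fold change 1.30, adjusted p = 0.022). Bok was counted 43, 1 and 15 times in IR-BLZ945 and 0, 4, 0 and 0 times in BLZ945. The calls of Bok and Bcl2l1 ended without IR-BLZ945 mouse 65696 and without BLZ945 mouse 122 or 124, with adjusted p of up to 0.0771 for Bok and 0.0800 for Bcl2l1. That of Bcl2l1 also ended without BLZ945 mouse 123.

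**Figure D1:**
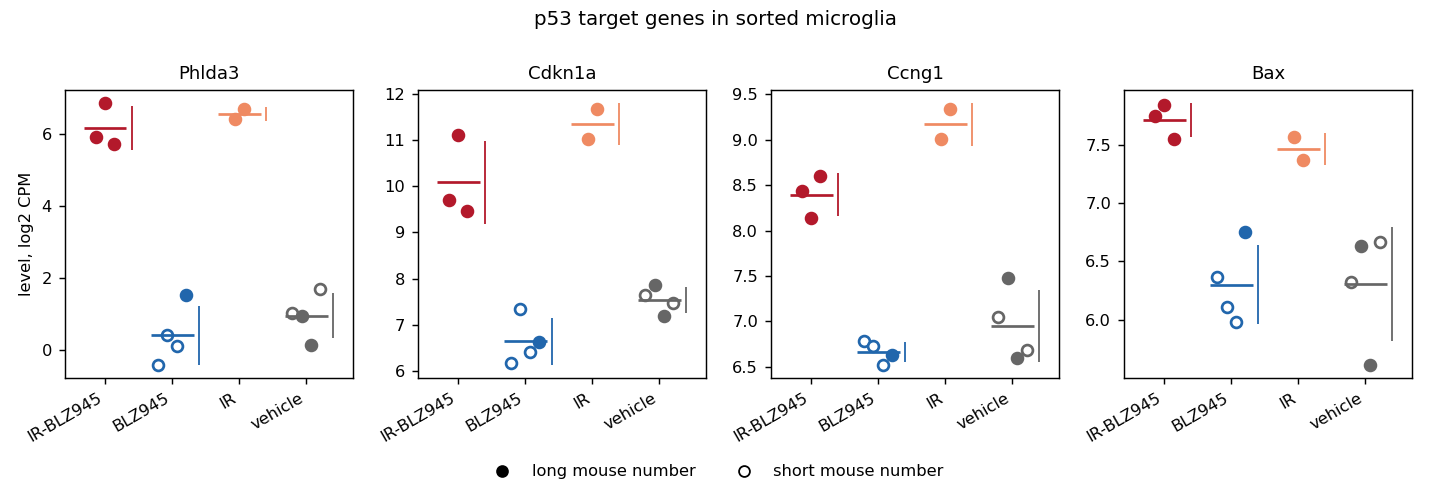
Levels of Phlda3, Cdkn1a, Ccng1 and Bax in single MG libraries, in log2 CPM, for IR-BLZ945, BLZ945, IR and vehicle; each point is 1 mouse, filled for long and open for short mouse numbers, with the group mean as a horizontal line and the SD as a vertical bar. For Phlda3, libraries with radiation lie between 5.72 and 6.86 and libraries without it between -0.43 and 1.69.

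Phlda3, Cdkn1a, Ccng1 and Bax passed whichever of the 7 libraries was left out, with adjusted p of at most 0.0145. Without mouse 65971, 9 of the 38 rose and 1 fell. Without BLZ945 mouse 124, 6 rose, and without mouse 122, 7 rose. When long or short mouse numbers entered the fit as a covariate, 5 rose, with a median of 0.63. Among long-numbered mice alone the median was 0.57 and 1 gene passed, Phlda3.

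Genes of mitosis were lower when radiation was added. Of 30 mitosis genes 18 fell and 0 rose (background 2.81% lower), with a median log2 fold change of -2.71, and for 16 the libraries did not overlap with IR-BLZ945 lower (background 8.42%). Aurkb, which encodes Aurora kinase B of the chromosomal passenger complex, stood at -0.90, -3.48 and -0.73 log2 CPM in IR-BLZ945, against 2.79, 2.87, 4.21 and 3.43 log2 CPM in BLZ945. These levels come from 4, 0 and 6 counts in IR-BLZ945 and 73, 70, 205 and 116 counts in BLZ945, so the gene was all but absent with radiation and low but present in every library without it. The log2 fold change was -4.72 (SE 0.62, adjusted p = 0.00063). Aurka, the kinase of the spindle poles, was counted 2, 0 and 8 times in IR-BLZ945 and 50, 34, 122 and 126 times in BLZ945 (log2 fold change -4.26, adjusted p = 0.0011). Ccnb1, which encodes cyclin B1, the partner of CDK1 at entry into mitosis, was counted 1, 3 and 0 times in IR-BLZ945 and 42, 41, 129 and 170 times in BLZ945 (log2 fold change -5.47, SE 0.91, adjusted p = 0.0028). Neither gene overlapped between the groups.

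Fam64a, a mitotic gene also known as Pimreg, had 0 counts in all 3 IR-BLZ945 libraries and 10, 14, 63 and 53 counts in BLZ945, at least 26.1-fold lower with a floor of 3 counts set for the 3 libraries together. Fam64a lies below the list median also at that bound. Other mitosis genes that fell included Ube2c, the ubiquitin carrier of the anaphase-promoting complex (log2 fold change -5.01), the kinases Nek2 (-5.31), Bub1 (-4.83) and Pbk (-6.22), cyclin A2 (Ccna2, -3.73), the spindle factors Nusap1 (-4.98) and Tpx2 (-2.20), the kinesins Kif20a (-3.36), Kif11 (-3.09) and Kif23 (-2.80), and Birc5 (-3.06), which encodes survivin. Pttg1, the securin that holds back separase, stood at 2.15, 1.42 and 1.62 log2 CPM in IR-BLZ945, against 5.98, 6.08, 5.45 and 3.83 log2 CPM in BLZ945 (log2 fold change -3.79, SE 0.52, adjusted p = 0.00075). Mki67, the usual marker of cycling cells, stood at 2.88, 3.74 and 1.36 log2 CPM in IR-BLZ945 and at 1.44, 3.26, 4.30 and 4.78 log2 CPM in BLZ945. Its groups overlapped and it did not pass (log2 fold change -1.01, adjusted p = 0.39). Cdk1 had a log2 fold change of -0.85 and Cenpf one of 1.39, and neither passed.

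Promoters of 3 mitosis genes are shown because many genes of this list fell together and many hold the same short elements near their starts. The 100 bases before each start (RefSeq, GRCm38.p6) are printed 5′ to 3′ on the strand of the gene. Capitals mark CCAAT and the cell cycle genes homology region, taken here as TTTGAA or TTTAAA, on either strand. Ccnb1 is at chr13:100786487-100786586 (minus strand), Ube2c at chr2:164769829-164769928 (plus strand) and Aurka at chr2:172370571-172370670 (minus strand).
Ccnb1: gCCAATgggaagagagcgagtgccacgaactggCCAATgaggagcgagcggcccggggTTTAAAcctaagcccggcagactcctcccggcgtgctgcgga
Ube2c: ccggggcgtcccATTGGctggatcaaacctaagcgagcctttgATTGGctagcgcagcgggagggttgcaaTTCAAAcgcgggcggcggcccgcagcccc
Aurka: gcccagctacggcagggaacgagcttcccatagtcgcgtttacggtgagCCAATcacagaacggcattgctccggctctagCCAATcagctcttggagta
Each of the 3 stretches holds CCAAT on 2 occasions, and those of Ccnb1 and Ube2c also hold a TTTGAA or TTTAAA element after them. Over 250 bases, 12 of 23 mitosis genes with a promoter in the table (52.2%) held TTTGAA or TTTAAA, 20 (87%) held CCAAT and 10 (43.5%) held both, against 25.5%, 34.5% and 8.99% of all 27018 promoters. Of 25 promoters of DNA replication genes, 5 (20%) held TTTGAA or TTTAAA, 15 (60%) held CCAAT and 3 (12%) held both. Of 29 promoters of p53 list genes these were 10 (34.5%), 16 (55.2%) and 6 (20.7%), so CCAAT was not particular to the mitosis genes. The motifs were searched on both strands and do not overlap one another, and a match is a description of the letters.

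The lower mitosis genes were also seen in the alternatives that used fewer mice. Without mouse 65971, 19 fell, without BLZ945 mouse 124, 11, and without mouse 122, 16. With the mouse number covariate 11 fell (median -3.35). Among long-numbered mice alone 10 fell (median -3.15), and most of the 19 genes that passed there belong to cell division, among them Aurkb, Aurka, Ccnb1, Ube2c, Nek2, Bub1, Nusap1 and Ccna2. Summed over the list, mitosis transcripts made up 54.96, 264.1 and 34.55 CPM in IR-BLZ945 and 122.2, 133.4, 395.8 and 443.5 CPM in BLZ945. Mouse 65971 lay among the BLZ945 libraries in this sum, although 10 of the 30 genes had no count in it.

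DNA replication genes showed the same direction. Of 30 genes 14 fell and 0 rose (background 2.81% lower), with a median log2 fold change of -2.15. Tk1, the thymidine kinase of S phase, was counted 0, 0 and 5 times in IR-BLZ945 and 37, 82, 213 and 114 times in BLZ945, with no overlap (log2 fold change -5.63, SE 0.86, adjusted p = 0.0012). Mcm5 and Mcm2, subunits of the replicative helicase, had log2 fold changes of -2.88 (adjusted p = 0.0061) and -2.997 (adjusted p = 0.011). BLZ945 mouse 124 held the most of both, with 2087 counts of Mcm5, against 457 to 520 in the 3 other BLZ945 libraries and 155, 19 and 109 in IR-BLZ945. Esco2, the acetyltransferase that joins sister chromatids, was counted 0, 0 and 3 times in IR-BLZ945 and 8, 13, 51 and 62 times in BLZ945, a ratio of 0.04 with a counting interval of 0.00815 to 0.119. The others that fell were Mcm7, Lig1, Uhrf1, Rrm2, Fen1, Cdc45, Prim1, Cdt1, Gins2 and Clspn. Dtl, which marks the licensing factor CDT1 for destruction, and Timeless, of the replication fork, fell with log2 fold changes of -6.21 and -4.42. Without BLZ945 mouse 124, 5 replication genes fell. With the mouse number covariate 3 did, and among long-numbered mice alone 1 did, Tk1.

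Of 28 DNA repair genes 4 fell and 0 rose (background 2.81% lower), among them Rad51ap1 (log2 fold change -3.29, adjusted p = 0.010), Brca1 (-3.79, 0.020) and Fanca (-2.33, 0.047). These genes serve homologous recombination and crosslink repair, which act in S and G2 phase. The damage kinases Atm (log2 fold change 0.93) and Atr (-0.75) did not pass. The call of Rad51ap1 held whichever of the 7 libraries was left out. That of Brca1 ended without IR-BLZ945 mouse 65696 or BLZ945 mouse 124 (adjusted p up to 0.0844). That of Fanca ended without IR-BLZ945 mouse 65696 or 65971 or BLZ945 mouse 122, 123 or 124 (adjusted p up to 0.139). With the mouse number covariate 0 of the 28 genes passed, and Rad51ap1 had an adjusted p of 0.0571. Mean levels of the repair list were highest in BLZ945 mouse 124, at 4.03 log2 CPM.

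Radiation without BLZ945, in 2 IR mice against 4 vehicle mice, gave a comparison with no library in common with the one above. The vehicle libraries differed in Lars2, at 12.12 and 13.87 log2 CPM in the short-numbered mice 41 and 78. The long-numbered vehicle mice 65966 and 65967 stood at 6.15 and 6.90 log2 CPM, and IR at 5.09 and 6.51 log2 CPM. With the level of Malat1 minus that of Lars2 as a covariate, 84 genes passed. Without that covariate 289 of 14534 genes passed (1.99%), 32 higher (0.22%) and 257 lower (1.77%). Of the p53 targets 12 of 38 rose and 0 fell, with a median log2 fold change of 1.16, of the mitosis genes 25 of 30 fell (median -5.97), and of the replication genes 8 of 30 fell (median -2.39). Without the library labelled 65698, which leaves 1 IR library with its spread taken from the other groups, 8 p53 targets rose (median 1.10), 10 mitosis genes fell (median -5.86) and 2 replication genes fell (median -2.83). Phlda3 stood at 6.403 and 6.68 log2 CPM in IR and at 1.01, 0.94, 0.14 and 1.69 log2 CPM in vehicle. The IR libraries lay within the range of the IR-BLZ945 libraries, and the log2 fold change was 5.57 (SE 0.51), close to the 5.74 on top of BLZ945. Cdkn1a stood at 11.02 and 11.67 log2 CPM in IR, against 7.64, 7.87, 7.20 and 7.47 log2 CPM in vehicle (log2 fold change 3.82, adjusted p = 3.2e-05), again without overlap. The count of 289 rested on both IR mice: without IR mouse 65972 it was 15, and without the library labelled 65698 it was 69. Without that library Phlda3 (log2 fold change 5.70, adjusted p = 2.95e-05) and Cdkn1a (4.10, adjusted p = 6.92e-05) still passed.

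Of the genes that passed in each comparison, 83 were shared, 5.8% of the 1430 and 28.7% of the 289. Of these, 82 had the same direction, 14 higher and 68 lower. The exception was Ndrg1, a gene induced by hypoxia and by p53, which stood at 4.00, 6.02 and 2.81 log2 CPM in IR-BLZ945, against -1.11, -0.50, -0.89 and 1.08 log2 CPM in BLZ945, and at -0.25 and -0.51 log2 CPM in IR, against 3.98, 4.28, -0.03 and 4.40 log2 CPM in vehicle. It rose where radiation was added to BLZ945 (log2 fold change 5.02, SE 0.88, adjusted p = 0.0033) and fell where it was given alone (-4.36, adjusted p = 0.049). The test of the difference between both responses passed for 2 genes (0.0138%), 1 higher and 1 lower (0.00688% each), by edgeR, with 2572 at an unadjusted p under 0.05. These were Ndrg1, with a difference of 9.39 (adjusted p = 0.031), and Fgd2, an exchange factor for the GTPase CDC42, with a difference of -2.48 (adjusted p = 0.031). Fgd2 stood at 7.12, 7.15 and 7.26 log2 CPM in IR-BLZ945, against 9.16, 8.93, 9.02 and 7.68 log2 CPM in BLZ945, and the fourth value, of mouse 65975, lay nearer to the IR-BLZ945 libraries than to the other BLZ945 libraries. Each of the 2 genes passed in 9 of 23 other settings, with adjusted p from 6.72e-11 to 0.933 for Ndrg1 and from 6.17e-05 to 0.933 for Fgd2. Without the library labelled 65698 neither passed, with differences of 9.52 for Ndrg1 (adjusted p = 0.103) and -2.63 for Fgd2 (adjusted p = 0.0832). DESeq2 passed 885 genes for this difference.

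For Mki67 the 2 responses lay far apart without passing. It stood at -1.96 and 0.12 log2 CPM in IR and at 5.74, 7.28, 5.14 and 5.47 log2 CPM in vehicle, a log2 fold change of -6.90 (adjusted p = 0.0024), and the difference between the responses was 5.89 (adjusted p = 0.071). Without the library labelled 65698 the log2 fold change of Mki67 was -6.17, which did not pass (adjusted p = 0.0672), and the difference was 5.13 (adjusted p = 0.17). The vehicle libraries were all above the 4 BLZ945 libraries, which reached 4.78 log2 CPM. Summed mitosis transcripts were 42.56 and 29.2 CPM in IR and 1057, 2260, 480.9 and 1003 CPM in vehicle. For Cdkn1a the difference between the responses was -0.25 (adjusted p = 0.84), and for Phlda3 it was 0.16 (adjusted p = 0.92).

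**Figure D2:**
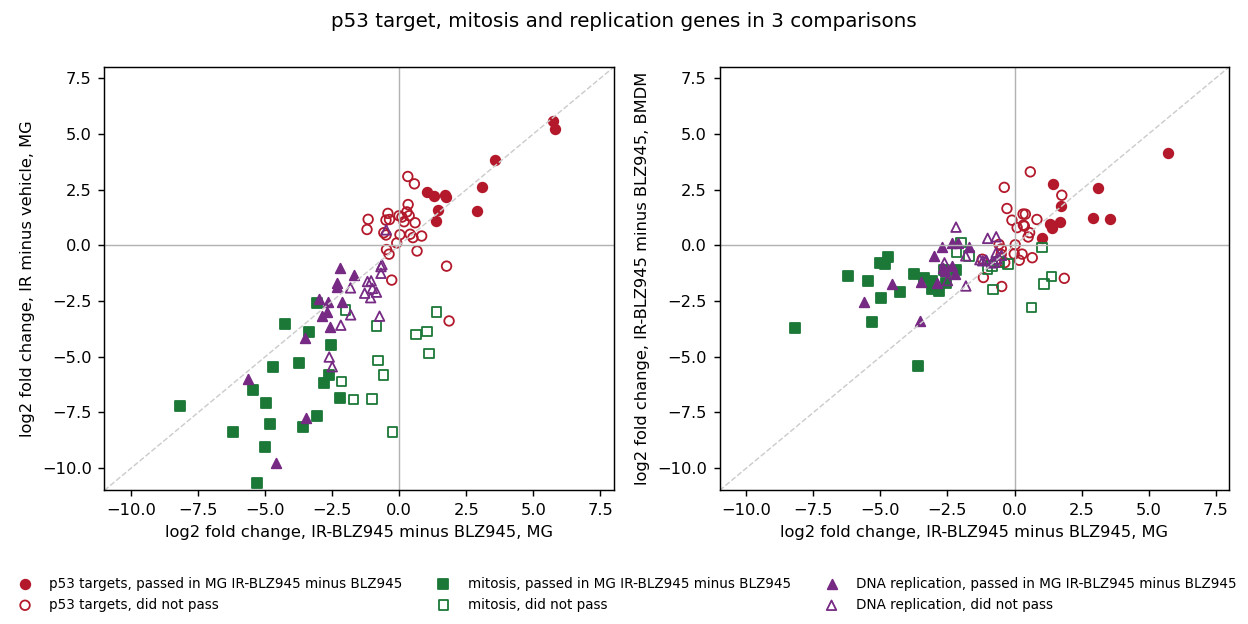
Log2 fold changes of p53 target, mitosis and DNA replication genes for radiation added to BLZ945 in MG (x axes), against radiation alone in MG (IR minus vehicle, left y axis) and against radiation added to BLZ945 in BMDM (right y axis). Filled points passed in MG on the x axis and the dashed line marks equal values; Phlda3 lies at 5.74 on x and at 5.57 on the left and 4.13 on the right, and Fam64a is a fitted value with all IR-BLZ945 MG libraries at 0 counts.

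The same comparison was made in the BMDM of the same 7 mice, where long and short mouse numbers are divided between the groups as in MG. In BMDM 521 of 14568 genes passed (3.58%), 438 higher (3.01%) and 83 lower (0.57%), and 166 of them also passed in MG, 11.6% of the MG genes and 31.9% of the BMDM genes. Of these 166, 164 had the same direction, 130 higher and 34 lower. Some transcripts of other brain cells, such as Ttr, were higher in both populations. Their part in this overlap was not tested. Of the p53 targets 8 of 38 rose in BMDM (median 0.88) and of the mitosis genes 4 of 30 fell (median -1.40). Phlda3 rose in BMDM by a log2 fold change of 4.13 (SE 0.75, adjusted p = 0.0072), and the difference between MG and BMDM did not pass (1.59, adjusted p = 0.39).

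The test of the difference between MG and BMDM passed for 142 of 15901 genes (0.893%), 33 with the larger value in MG (0.208%) and 109 with the smaller (0.685%). With the mouse as a block, which fits the shared origin of both populations, 59 passed, 13 and 46. Cdkn1a in BMDM stood at 9.92, 10.09 and 9.41 log2 CPM in IR-BLZ945 and at 8.25, 9.01, 9.01 and 8.07 log2 CPM in BLZ945, a log2 fold change of 1.19 (SE 0.31, adjusted p = 0.036). Levels with radiation were thus near those of MG, and BMDM without radiation lay higher than MG without it. The response in MG was larger by 2.35 (SE 0.48, adjusted p = 0.0083), and by 2.20 with the mouse as a block (adjusted p = 0.0041). Aurkb in BMDM stood at 2.96, 4.88 and 3.93 log2 CPM in IR-BLZ945 and at 4.44, 5.47, 2.27 and 4.86 log2 CPM in BLZ945, with overlap and without passing (log2 fold change -0.52, adjusted p = 0.74). The difference between the populations was -4.23 (adjusted p = 0.010), and with the mouse as a block -4.06, which did not pass (adjusted p = 0.108).

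Among the genes with the smaller value in MG were 3 counted in BMDM with radiation and at 0 in all 4 BMDM libraries without it. They were Ephb3, an ephrin receptor, at least 42.2-fold higher in IR-BLZ945 BMDM, Ric3, a chaperone of acetylcholine receptors, at least 77.8-fold, and Oscp1, at least 34.5-fold. In MG these 3 genes were counted in both groups, apart from 0 counts of Ric3 and Oscp1 in mouse 65971, and did not pass, with log2 fold changes of -0.89 for Ephb3, -1.34 for Ric3 and -1.16 for Oscp1. These 3 differences between the populations are fitted values that rest on the 0 counts in BLZ945 BMDM and are no bounds. They were -9.05 for Ephb3 (adjusted p = 0.00036), -10.37 for Ric3 (0.0018) and -9.04 for Oscp1 (0.00082), and all 3 passed with the mouse as a block (adjusted p = 0.043, 0.044 and 0.047). Dusp27 had 0 counts in all 3 IR-BLZ945 BMDM libraries, at least 14.7-fold lower than in BLZ945 BMDM, where 2 of the 4 libraries were also at 0. Its difference of 8.66, likewise a fitted value (adjusted p = 0.046), did not pass with the block (adjusted p = 0.26).

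Most genes that identify microglia did not pass, while their mean level was lower in all 3 IR-BLZ945 libraries. Of 24 microglia identity genes 1 rose and 3 fell (background 7.02% higher and 2.81% lower), with a median log2 fold change of -0.51, and for 7 the libraries did not overlap with IR-BLZ945 lower (background 8.42%). The mean over the list was 8.44, 8.07 and 8.46 log2 CPM in IR-BLZ945, against 8.98, 8.77, 8.85 and 8.97 log2 CPM in BLZ945, without overlap. The summed list overlapped, at 24310, 23050 and 23290 CPM in IR-BLZ945 and 25320, 22190, 25350 and 33850 CPM in BLZ945. Tmem119, a microglial surface protein, stood at 9.93, 9.84 and 9.97 log2 CPM in IR-BLZ945 and at 10.003, 8.91, 9.98 and 10.01 log2 CPM in BLZ945 (log2 fold change 0.12). It was high in all 7 libraries, as were P2ry12 (-0.55), Cx3cr1 (-0.51) and Trem2 (0.08), none of which passed. The purine receptor gene P2ry13 stood at 9.81, 9.72 and 9.77 log2 CPM in IR-BLZ945, against 8.76, 7.95, 8.31 and 9.23 log2 CPM in BLZ945 (log2 fold change 1.12, adjusted p = 0.028). The lens crystallin Crybb1, found in immature microglia, fell by 2.55 on the log2 scale, the adhesion receptor Gpr56, also called Adgrg1, by 1.71 and Rtn4rl1, a Nogo receptor relative, by 2.32. Of these 4 calls only that of Crybb1 held whichever library was left out. The others ended without BLZ945 mouse 122 or 124, P2ry13 and Rtn4rl1 also without mouse 123, and Gpr56 and Rtn4rl1 also without mouse 65971. Adjusted p reached 0.0946 for P2ry13, 0.0704 for Gpr56 and 0.0973 for Rtn4rl1. With the mouse number covariate 0 of the 24 genes passed, and Crybb1 had a log2 fold change of -1.23 (adjusted p = 0.169). With all 46 libraries in 1 fit 0 passed as well. Among long-numbered mice alone the log2 fold change of Crybb1 was -1.49.

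Csf1r, the target of the drug, stood at 12.06, 12.34 and 12.18 log2 CPM in IR-BLZ945, against 13.08, 12.998, 13.15 and 12.77 log2 CPM in BLZ945. The groups did not overlap, although every library was high, and the log2 fold change was -0.81 (SE 0.25, adjusted p = 0.046). It was the 1 gene of 11 on the CSF1R axis that passed, against 9.84% of all genes in either direction. The call ended when any of the libraries other than that of mouse 65975 was left out (adjusted p up to 0.119). Of 22 genes of the disease-associated microglial state 0 passed by edgeR, with 2 at an unadjusted p under 0.05. By DESeq2 1 passed, against 2299 of 14457 over all genes. Without BLZ945 mouse 65975, 4 passed, all higher, against 840 of 14508 higher over all genes. The nearest was Gpnmb, a lysosomal glycoprotein, at 10.85, 10.46 and 10.90 log2 CPM in IR-BLZ945 and at 6.38, 7.51, 7.10 and 9.76 log2 CPM in BLZ945 (log2 fold change 2.44, adjusted p = 0.051). Its highest BLZ945 value was that of mouse 65975. The growth factor Igf1 showed the same arrangement, at 8.71, 7.86 and 8.64 log2 CPM in IR-BLZ945 and at 4.96, 7.16, 5.74 and 8.30 log2 CPM in BLZ945, and did not pass (log2 fold change 1.37, adjusted p = 0.23). Arg1 (0.98, adjusted p = 0.67) and Mrc1 (0.83, adjusted p = 0.50), genes of alternative activation, did not pass either.

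Some antigen presentation genes were lower in IR-BLZ945. Of 10 MHC class II genes 6 fell and 0 rose (median log2 fold change -1.92), of 15 class I genes 4 fell (median -1.03) and of 24 interferon-induced genes 4 fell (median -0.61), against 2.81% lower over all genes. The libraries did not overlap with IR-BLZ945 lower for 7 class II, 1 class I and 0 interferon-induced genes (background 8.42%). For 1 interferon-induced gene they did not overlap with IR-BLZ945 higher (background 5.52%). Cd74, the invariant chain of class II molecules, stood at 9.89, 9.87 and 9.46 log2 CPM in IR-BLZ945, against 13.71, 11.42, 13.23 and 10.08 log2 CPM in BLZ945 (log2 fold change -2.96, adjusted p = 0.023). Summed class II transcripts were 2085, 1653 and 1503 CPM in IR-BLZ945 and 22090, 4324, 16640 and 2300 CPM in BLZ945. The short-numbered mice 122 and 124 were far above the rest, and the long-numbered BLZ945 mouse 65975 lay just above the IR-BLZ945 mice. The short-numbered mouse 123 lay nearer to mouse 65975 than to mice 122 and 124. Sums of 1422 and 546.7 CPM in IR were below that of mouse 65975, as were those in vehicle, at 1770 and 2171 CPM in the short-numbered mice 41 and 78 and 1777 and 2176 CPM in the long-numbered 65966 and 65967.

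Besides Cd74 the class II genes that fell were H2-DMa (log2 fold change -2.01), H2-Oa (-1.82), H2-DMb1 (-1.25), H2-Eb1 (-2.66) and H2-Ab1 (-2.46), which encode peptide loading factors and antigen-presenting chains. In class I they were H2-K1 (-1.25), H2-Q6 (-3.04), the immunoproteasome subunit Psmb9 (-1.24) and Nlrc5 (-2.67), the class I transactivator. Among interferon-induced genes they included the transcription factor Stat2 (-1.05) and the GTPases Gbp2 (-3.14) and Irgm1 (-1.50). With the mouse number covariate none of these 3 lists held a gene that passed, and the same was true without BLZ945 mouse 122, without mouse 124 and among long-numbered mice alone. In the last setting the class I median was 0.31 and the interferon median 0.44, above 0. H2-K1, H2-Q6, Nlrc5, Stat2 and Gbp2 then had log2 fold changes of 0.15, 1.26, 0.35, 0.38 and 0.87, the other way round from all 7 libraries, and none passed. Without mouse 65971, 1 class II gene fell, 0 of class I and 2 of the interferon list.

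**Figure D3:**
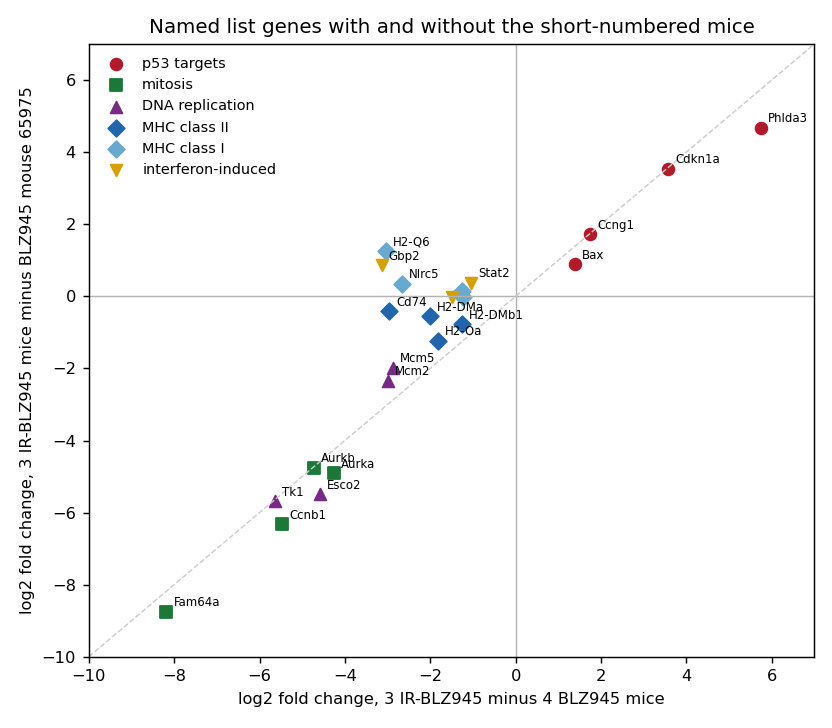
Log2 fold changes of named genes of the p53, mitosis, replication, MHC and interferon lists, for 3 IR-BLZ945 mice against 4 BLZ945 mice (x axis) and for the same 3 against the long-numbered BLZ945 mouse 65975 alone (y axis). Phlda3, at 5.74 on x, lies at 4.68 on y, and Aurkb, at -4.72 on x, at -4.76, while Gbp2, at -3.14 on x, lies at 0.87 on y; Fam64a is a fitted value with all IR-BLZ945 libraries at 0 counts.

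Some transcripts of blood-derived myeloid cells were higher in IR-BLZ945. Of 24 genes of blood macrophage identity 7 rose and 0 fell (background 7.02% higher; median log2 fold change 1.72). They included Ahnak, a large scaffold protein, at 3.52, 4.51 and 2.41 log2 CPM in IR-BLZ945, against -3.48, -0.73, -1.89 and 0.14 log2 CPM in BLZ945 (log2 fold change 4.89, adjusted p = 0.0041), and Anxa1, which encodes annexin A1, at 4.89, 3.88 and 4.95 log2 CPM, against -2.45, -2.38, -3.48 and 1.92 log2 CPM in BLZ945 (4.67, adjusted p = 0.013). In both genes mouse 65975 had the highest BLZ945 value and the groups did not overlap. S100a11, S100a6, Cd24a and Mgst1 also rose. The mean over the 24 genes overlapped, at 4.83, 2.92 and 4.50 log2 CPM in IR-BLZ945 and 1.32, 1.98, 1.45 and 3.40 log2 CPM in BLZ945. Mouse 65971 lay below BLZ945 mouse 65975 in this mean and in the list sum (7474 against 8433 CPM). The means were 3.32, 4.32, 2.22 and 3.93 log2 CPM in vehicle and 3.68 and 1.71 log2 CPM in IR. Without mouse 65971, 6 rose, without BLZ945 mouse 122 or 124, 2, and with the mouse number covariate 0.

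Of 18 genes of alternative activation 6 rose and 1, the scavenger receptor Stab1 (log2 fold change -0.94), fell (background 7.02% higher and 2.81% lower). Cd209a, a lectin of monocyte-derived cells also known as DC-SIGN, was counted 418, 215 and 432 times in IR-BLZ945 and 0, 8, 2 and 11 times in BLZ945, a clear separation (log2 fold change 6.64, SE 1.00, adjusted p = 0.0011). In BMDM it was abundant in both groups, at 10.10, 9.94 and 10.58 log2 CPM in IR-BLZ945 and at 9.80, 10.58, 9.92 and 8.14 log2 CPM in BLZ945, and the MG response exceeded that of BMDM by 6.22 (adjusted p = 0.0015; 6.11 with the mouse as a block, adjusted p = 0.0052). The chemokine Ccl17 was counted 575, 43 and 435 times in IR-BLZ945 and 4, 0, 2 and 0 times in BLZ945 (log2 fold change 7.99, adjusted p = 0.0054). It too was abundant in both BMDM groups, at 9.68, 6.10 and 9.08 log2 CPM in IR-BLZ945 and at 7.80, 9.41, 8.24 and 5.71 log2 CPM in BLZ945. Retnla, a secreted product of alternatively activated macrophages, had 117, 25 and 75 counts in IR-BLZ945 and 0 in all BLZ945 libraries, at least 129-fold higher. The gelatinase Mmp9 had 178, 0 and 371 counts in IR-BLZ945 and 1, 2, 0 and 0 in BLZ945, a ratio of 327 with a counting interval of 111 to 1590. Chi3l3 (log2 fold change 4.76) and F13a1 (3.77) were the others that rose. The call of F13a1 ended without mouse 65971 and without BLZ945 mouse 122, 123 or 124 (adjusted p up to 0.249), and that of Stab1 without any of these 4 or IR-BLZ945 mouse 65696 (adjusted p up to 0.142). Of the 18 genes 3 rose with the mouse number covariate. Among long-numbered mice alone none of the list passed, with a median of 1.68.

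Neutrophil transcripts rose as well, in 3 of the 5 neutrophil genes tested (background 7.02% higher). S100a9, a calcium-binding protein of neutrophils, had 172, 71 and 100 counts in IR-BLZ945 and 0 in all BLZ945 libraries, at least 204-fold higher. Retnlg was counted 1493, 185 and 1264 times in IR-BLZ945 and 0, 10, 0 and 0 times in BLZ945 (log2 fold change 8.78, adjusted p = 0.018), and Mmp8, a collagenase of neutrophils, was the other (3.13). Over the whole list the sum was 227.7, 111.2 and 135.4 CPM in IR-BLZ945, against 0.374, 4.02, 0.808 and 6.63 CPM in BLZ945. Without BLZ945 mouse 122 or 124 none of the 3 passed, with adjusted p of up to 0.0773 for S100a9, 0.0679 for Retnlg and 0.104 for Mmp8. The calls of S100a9 and Mmp8 also ended without mouse 65971. Of the 5 genes 1 rose with the mouse number covariate. The sum of 9 monocyte genes was 410.7, 420.7 and 442.7 CPM in IR-BLZ945 and 8.23, 30.1, 10.3 and 636.3 CPM in BLZ945, where mouse 65975 lay above all 3 IR-BLZ945 mice. The part of such cells in the blood macrophage and activation genes was not tested.

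Many transcripts of brain cells outside the myeloid lineage were higher in IR-BLZ945 (background 7.02% higher). Of 12 choroid plexus genes, from the epithelium that makes cerebrospinal fluid, 11 rose (median log2 fold change 6.05). Ttr, which encodes transthyretin, was counted 9171, 22 and 8966 times in IR-BLZ945 and 0, 3, 0 and 0 times in BLZ945, a ratio of 10800 with a counting interval of 3700 to 52400. Enpp2, the lysophospholipase autotaxin, stood at 9.39, 2.57 and 9.63 log2 CPM in IR-BLZ945, against -2.45, 0.41, -0.48 and -2.46 log2 CPM in BLZ945 (log2 fold change 9.90, adjusted p = 0.00063). Mice 65696 and 67537 held far more of both than mouse 65971, and all 3 were above the BLZ945 mice. The summed list came to 1830, 132.9 and 1656 CPM in IR-BLZ945 and 2.06, 8.04, 2.25 and 2.39 CPM in BLZ945, with 6, 1, 7 and 9 of the 12 genes at 0 in BLZ945 and 0, 7 and 0 at 0 in IR-BLZ945. In IR it was 3.34 and 7.57 CPM, and in vehicle 2.05 to 5.99 CPM.

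The same held in the BMDM of these mice, where Ttr had 6576 counts over the 3 IR-BLZ945 libraries and 2 over the 4 BLZ945 libraries. Of the 9 choroid plexus genes tested in BMDM, 5 rose (BMDM background 3.01% higher). In MG, 6 of 10 astrocyte genes rose (background 7.02% higher), among them Gfap, the astrocyte filament, at 1048, 0 and 1322 counts in IR-BLZ945 and 37, 26, 40 and 46 counts in BLZ945 (log2 fold change 4.46), Aldoc (4.82) and the glutamate transporter Slc1a2 (4.70). Of 9 neuron genes 6 rose, among them the synaptic genes Snap25 (4.37) and Syn1 (4.91). Of 8 oligodendrocyte genes 3 rose, among them Mbp and Mobp, which encode myelin proteins. Mbp stood at 8.54, 6.41 and 8.50 log2 CPM in IR-BLZ945, against 5.09, 5.36, 5.13 and 6.37 log2 CPM in BLZ945 (log2 fold change 2.503, adjusted p = 0.0011), and mouse 65971 was only just above BLZ945 mouse 65975.

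Summed neuron transcripts were 39.7, 34.4 and 44.3 CPM in IR-BLZ945 and 2.53, 8.35, 2.604 and 2.85 CPM in BLZ945. Summed astrocyte transcripts were 953.6, 1046 and 1082 CPM in IR-BLZ945 and 246.9, 167, 232.3 and 904.3 CPM in BLZ945, so that mouse 65975 lay close to the IR-BLZ945 mice. They were 2059 and 2417 CPM in IR and 1080, 401.9, 2182 and 703.1 CPM in vehicle, so that 3 of these 6 libraries were above all IR-BLZ945 mice. The mean over the 10 astrocyte genes was 4.81, 0.01 and 4.85 log2 CPM in IR-BLZ945, against 0.37, 0.68, 0.93 and 0.71 log2 CPM in BLZ945, with mouse 65971 below every BLZ945 library. When the mouse number covariate entered the fit, 3 astrocyte, 1 neuron and 2 oligodendrocyte genes rose. Of the 12 choroid plexus genes 1 rose with that covariate (median 6.43), and Ttr did not pass by edgeR (adjusted p = 0.143). Without mouse 65971, 10 of the 12 choroid plexus genes rose, without BLZ945 mouse 122, 5, and without mouse 124, 3. Among long-numbered mice alone none passed, with a median of 9.33. In IR against vehicle none of the 39 choroid plexus, astrocyte, neuron and oligodendrocyte genes passed by edgeR, with 3 at an unadjusted p under 0.05. The part of these transcripts in the other results was not tested.

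**Figure D4:**
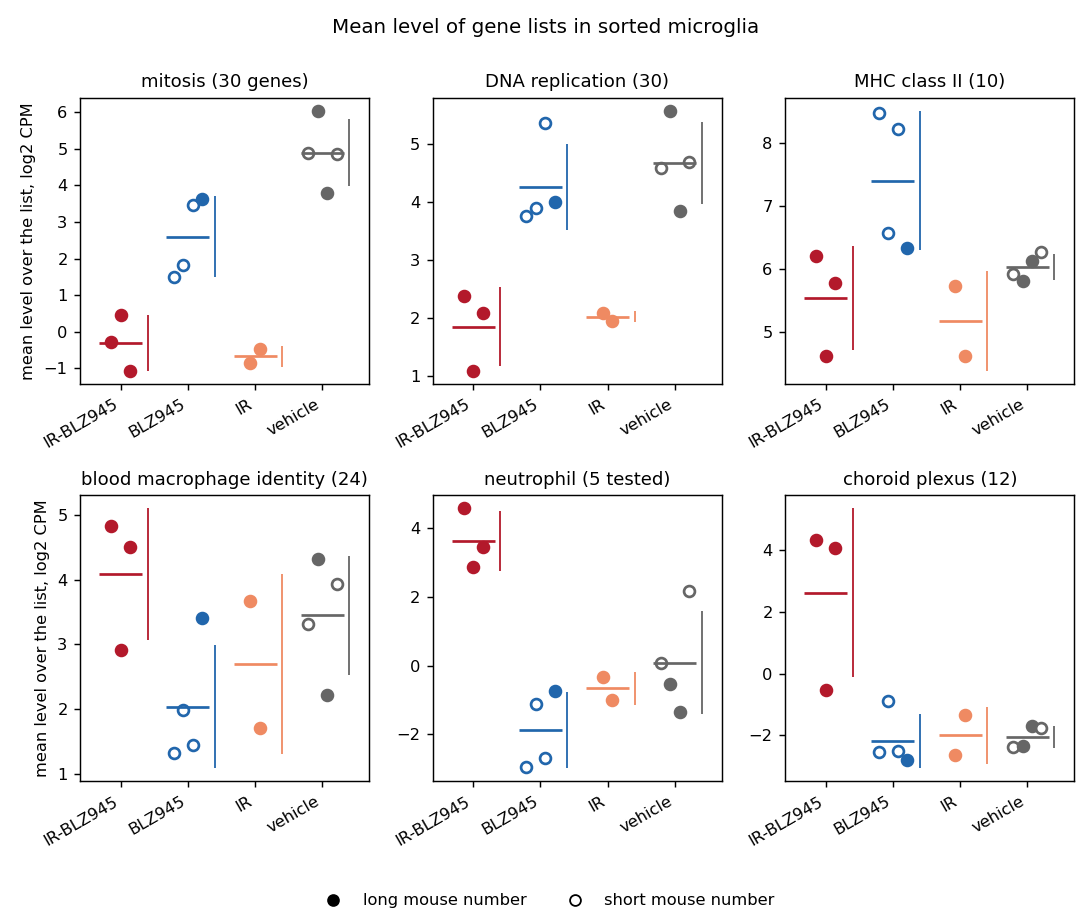
Mean log2 CPM over the genes of a list in single MG libraries, for IR-BLZ945, BLZ945, IR and vehicle; each point is 1 mouse, filled for long and open for short mouse numbers. For the replication list BLZ945 mouse 124 stands at 5.36, and for the choroid plexus list the 3 IR-BLZ945 mice lie above all other libraries shown.

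The remaining genes with the widest changes fell on both sides. Spint1, an inhibitor of serine proteases, was counted 4, 0 and 0 times in IR-BLZ945 and 2006, 1322, 1988 and 7 times in BLZ945 (log2 fold change -9.44, SE 1.41, adjusted p = 0.0011). The 7 counts were in mouse 65975, so the high level was in BLZ945 mice 122, 123 and 124. In vehicle Spint1 stood at -2.23 and -2.48 log2 CPM in the short-numbered mice 41 and 78 and at -2.08 and -1.17 log2 CPM in the long-numbered 65966 and 65967. Apoc2, a cofactor of lipoprotein lipase, was lower at 2.00, -3.48 and 1.81 log2 CPM in IR-BLZ945, against 5.81, 6.22, 5.77 and 3.39 log2 CPM in BLZ945 (log2 fold change -4.19), and Mycl1, a MYC family gene, at 0.73, -3.48 and -0.54 log2 CPM, against 4.57, 3.89, 3.73 and 0.80 log2 CPM in BLZ945 (-4.01). In both genes mouse 65975 had the lowest BLZ945 value. Mrc2 (log2 fold change -5.87), a collagen receptor, and Tmem8c (-3.80), the muscle fusion gene Myomaker, completed the falls. Without BLZ945 mouse 122 or 124 the calls of Apoc2, Mycl1 and Mrc2 ended, with adjusted p of up to 0.105, 0.061 and 0.112. That of Apoc2 also ended without BLZ945 mouse 123 or any single IR-BLZ945 mouse, and that of Mrc2 without mouse 65971 or 67537.

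Among the rises, Tnfrsf19, a receptor of the tumour necrosis factor family, had 125, 13 and 155 counts in IR-BLZ945 and 0, 1, 0 and 0 in BLZ945, a ratio of 523 with a counting interval of 93.2 to 20700. Igfbp2, which binds insulin-like growth factors, had 398, 1 and 517 counts in IR-BLZ945 and 1, 2, 0 and 0 in BLZ945, so that mouse 65971 was no higher than the BLZ945 mice in counts. Slco1c1, a thyroid hormone transporter of the blood-brain barrier, had 41, 68 and 83 counts in IR-BLZ945 and 0, 1, 0 and 0 in BLZ945 (ratio 343, 60.8 to 13600), and Hepacam, an adhesion molecule of glia, 37, 58 and 89 counts in IR-BLZ945 and 0, 1, 2 and 0 in BLZ945 (ratio 110, 36.9 to 536). All 3 IR-BLZ945 mice were high in both of these genes.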

How the data were processed

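The authors deposited whole-number, unnormalized counts for 23329 mouse genes. The submitters' processing notes name CASAVA 1.8, STAR 2.5.0e, HTSeq, DESeq2 and mm10. Annotation and strand setting are not given in the sources used here. Overlapping genes, antisense genes and close paralogs (H2 genes, Mcm genes) may share reads. A Smart-Seq kit was used on RNA of sorted cells, per the labels' protocols, without molecular identifiers, so intervals and floors cover counting error only.

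Groups came from the labels, and replicates are separate mice. The test was edgeR 4.0.16 (quasi-likelihood, robust, TMM scaling, filterByExpr with minimum count 10 and minimum total 15; limma 3.58.1, R 4.3.3), in 1 fit of 7 groups over 23 MG libraries with 16 residual degrees of freedom, another over the BMDM libraries and another over all 46 for MG against BMDM. P-values were adjusted by Benjamini-Hochberg over all genes of a comparison. None of the 25 pairs of libraries within the 6 groups used agreed within sampling noise (chi-square of at least 20.4 per degree of freedom). Both populations of a mouse carry its number and the study's design describes them as paired. Deviations from the group means correlated between MG and BMDM of a mouse at r = -0.000806 to 0.301 (median 0.139, over 0.1 in 5 of 7 mice, 7410 genes), so the block fit stands beside results that it changes.

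Members and gene lists were chosen with earlier results of these data known. Of 628 list entries 612 were found by symbol and 10 by synonym. Genes were named by rule: among those that passed, with a mean of at least 3 log2 CPM in 1 group and no overlap, the 10 largest rises and falls (3 and 3 for differences of differences, overlap allowed), up to 4 members of each list, and a fixed set of followed genes. Predicted genes and some others so chosen are not printed. A fold against a group at 0 counts uses a floor of 3 counts over the group. Alternatives were DESeq2 1.42.0, relative log expression (RLE) size factors, no low-count filter, other sets of libraries, terms for mouse number style, sex-linked profile or Malat1 minus Lars2, and leaving out each library. The doubted libraries left out together were MG of mice 65971, 68344 and 65698 and, for BMDM, those of 65698, 122 and 124. They were doubted for few detected genes or, for 65698, for sex-linked transcripts that differed between MG and BMDM. The lists of IR against vehicle without 65698, restricting the other comparisons to long-numbered mice, DESeq2 on 7 libraries and every alternative for BMDM were chosen after seeing the data.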

Additional observations from a re-analysis of the deposited data

Results flagged for a closer look

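Of 104 gene levels and list means tested among the 4 BLZ945 MG libraries, 18 had a single library whose gap to its nearest neighbour passed Dixon's critical share of the group's range. Chance alone does this in about 1 in 20 groups, and many of the genes share a library. BLZ945 mouse 65975 was the far library for Spint1 at -0.45 log2 CPM, Atp1b2 at -1.13, Fgd2 at 7.68, Bcl2l1 at 7.41, Apoc2 at 3.39, Rtn4rl1 at 5.54, Nlrc5 at 3.31 and the mean of the interferon-induced list at 5.00 log2 CPM. Mouse 124 was far above the rest for Mcm5 at 7.55 and Mcm2 at 7.16 log2 CPM, and for the means of the replication list at 5.36 and of the DNA repair list at 4.03 log2 CPM. Mouse 123 was the far library for Tnfrsf19 and Slco1c1, both at -2.38, Ttr at -1.33, Bok at -0.99, Retnlg at 0.16 and the mean of the choroid plexus list at -0.88 log2 CPM. For the 5 genes of mouse 123 the 3 other libraries were all at 0 counts. Any count in mouse 123 then sets the flag, so the rate of 1 in 20 does not hold for these genes.

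The response to added radiation differed from that to radiation alone for Ndrg1, by 9.39 on the log2 scale, and for Fgd2, by -2.48, both with an adjusted p of 0.031 by edgeR. Without the library labelled IR 65698 neither passed (adjusted p = 0.103 and 0.0832). It differed between MG and BMDM, with the larger value in MG, for Cdkn1a by 2.35 (adjusted p = 0.0083), Cd209a by 6.22 (0.0015), Ahnak by 4.11 (0.022), Ccl17 by 7.38 (0.039), Anxa1 by 4.48 (0.030) and Dusp27 by 8.66 (0.046). The value was smaller in MG for Aurkb by -4.23 (adjusted p = 0.010), Oscp1 by -9.04 (0.00082), Ric3 by -10.37 (0.0018) and Ephb3 by -9.05 (0.00036). The values of Oscp1, Ric3, Ephb3 and Dusp27 are fitted ones that rest on a BMDM group with 0 counts, BLZ945 for the first 3 and IR-BLZ945 for Dusp27, and are no bounds. With the mouse as a block Aurkb (adjusted p = 0.108) and Dusp27 (0.26) did not pass. Over 14 other settings, the block among them, Ccl17 passed in 4, Dusp27 in 5, Anxa1 in 7 and Ahnak in 8. Cdkn1a and Aurkb each passed in 10, and Cd209a, Oscp1, Ric3 and Ephb3 each in 12.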

How the results depend on the processing

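No paired analysis was possible for IR-BLZ945 against BLZ945 because the groups share no mouse, and the same holds for IR against vehicle. For MG against BMDM, the mouse as a replicate block lowered the number of genes that passed to 59, against 142. For IR-BLZ945 against BLZ945 in MG (1430 genes), 2299 passed with DESeq2, 0 with edgeR and 508 with DESeq2 on only the 7 libraries, 748 with all 46 libraries in 1 fit, 145 with the mouse number term, 737 with the sex-linked term, 19 among long-numbered mice and 927 without the doubted libraries, while leaving out 1 library gave 297 to 2240. RLE factors gave 1601, of which 78.8% were higher, against 71.4%, and moved the median of all genes to 0.08. For IR against vehicle (289), 825 passed with DESeq2, 145 with the mouse number term, 84 with the Malat1 minus Lars2 term, 73 among long-numbered mice and 15 to 862 leaving out 1 library. For the difference between those responses (2), 885 passed with DESeq2, 4 without the low-count filter, 11 with all 46 libraries, 81 without the doubted libraries and 0 to 404 leaving out 1 library; edgeR passed 0 with RLE factors, with the Malat1 minus Lars2 term, with only the 13 libraries and among long-numbered mice, where 2718, 1424, 1344 and 800 had an unadjusted p under 0.05. In BMDM (521), 1151 passed with DESeq2, 114 among long-numbered mice, 338 without the doubted libraries and 332 to 941 leaving out 1 library. For MG against BMDM (142), 581 passed with DESeq2, 0 by edgeR with only the 14 libraries (695 at an unadjusted p under 0.05), 29 among long-numbered mice and 92 to 434 leaving out 1 library. The causes were not tested. Of 76 named genes that passed in MG, 42 passed whichever of the 7 libraries was left out, 29 with the mouse number term, 6 among long-numbered mice alone (Phlda3, Aurkb, Aurka, Ccnb1, Fam64a and Tk1), and 71 kept their sign throughout; Stat2 (0.38), Gbp2 (0.87), H2-Q6 (1.26), H2-K1 (0.15) and Nlrc5 (0.35) turned round among long-numbered mice and did not pass. Genes with a few counts per library are limited by depth, most of all in mouse 65971.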
